A study of Mus musculus with 8 samples.

Results

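The 39 genes described here mark monocytes and the macrophages of the spleen, and they were picked by symbol from the 55401 genes counted in 8 mouse RNA-seq libraries. All 39 were found. They were grouped by role into 9 monocyte genes, 4 genes of macrophage identity, 5 genes of Fc receptors and ITAM signalling, 5 genes of complement C1q and apoptotic cell uptake, 6 genes of red pulp macrophages and iron recycling, 4 genes of marginal zone macrophages, and 6 lysosome and lipid genes. The libraries form 4 groups of 2, all from the spleen of C57BL/6 mice. Germinal center B cells, sorted by FACS, came from wild-type (WT) mice and from mice labelled as a B cell knockout (KO) of Jmjd1c, a gene of the Jumonji histone demethylase family. The same 2 genotypes were used for activated B cells, which were taken from spleen by biotin labelling and streptavidin beads before stimulation in vitro. The sources used here do not give the Cre driver, the deleted exons, the stimulus, the immunization or the age of the mice. The labels do not say whether the 2 libraries of a group came from separate mice, so each p-value reflects only how far these libraries spread, which may be technical.

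Monocytes leave the bone marrow, circulate, and can become macrophages once they enter a tissue. In the spleen, red pulp macrophages engulf old red blood cells and return their iron to the blood, under the control of the transcription factor Spi-C. Marginal zone macrophages take up particles from the blood through scavenger receptors, and tingible body macrophages clear the many B cells that die in germinal centers. Both preparations are labelled as B cells, so most of the genes are markers of other cells here, although B cells also transcribe some of them. Bulk counts cannot tell a change in the number of cells of a type from a change in RNA per cell.

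Levels are CPM, each gene's share of the counts on genes set to a common library size, with TMM scaling over all 8 libraries, whose totals ran from 8777425 to 11414559 counts on genes, so 3 counts were 0.263 to 0.342 CPM before that scaling. Where 2 values are given for a group they are its 2 libraries. Groups said not to overlap are compared by these libraries, and the share of all genes without overlap was not counted. With 2 libraries on each side such a separation can easily arise without a difference, so it describes the values and adds nothing to a call. A gene was called when edgeR's quasi-likelihood test gave a Benjamini-Hochberg adjusted p under 0.05 over all genes tested. Each SE is the size of the log2 fold change divided by the square root of that test's F statistic. It is not a separate estimate of error, and it can be too small where a group has few counts. Jmjd1c itself stood at 163 and 158 CPM in the KO libraries against 194 and 178 CPM in WT germinal center B cells (log2 fold change -0.20, SE 0.04, adjusted p = 1.66e-05). In activated B cells it stood at 136 and 153 CPM in the KO libraries against 274 and 282 CPM in WT (log2 fold change -0.94, SE 0.06, adjusted p = 1.81e-11). The direction was that of the labels in both preparations. In germinal center B cells the fall was small, and 25.1% of all 13350 genes tested there were called lower, so this fall alone does not verify the label. The B cell genes Cd79a, Cd79b, Ms4a1, Pax5, Cd22, Ebf1 and Blk summed to between 6109 and 7628 CPM in the 8 libraries. Genes that mark germinal centers, among them Bcl6 and Mki67, summed to at least 3388 CPM in every germinal center library and at most 235 CPM in every activated library.

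WT germinal center B cells held little RNA of most of these genes. Of the 39, 28 lay under 1 CPM, and Ccr2, Cx3cr1, Clec4e, Clec7a, Ptafr, Fcgr1, Trem2 and Gpnmb had no count in either library. WT activated B cells had 9 of the 39 under 1 CPM, and 1 of them, Timd4, had no count. Per kilobase of exon, a scale on which genes can be compared, the highest level in WT germinal center B cells was that of Apoe (279.6 CPM per kb), the lipid transport protein. Cst3, which encodes the protease inhibitor cystatin C, followed at 57.8 CPM per kb and the cathepsin gene Ctsb at 10.2 CPM per kb. In WT activated B cells the order began with Lyz2, the lysozyme of myeloid cells, at 329.9 CPM per kb, ahead of Apoe at 202 and Ms4a6c at 124 CPM per kb.

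**Figure D1:**
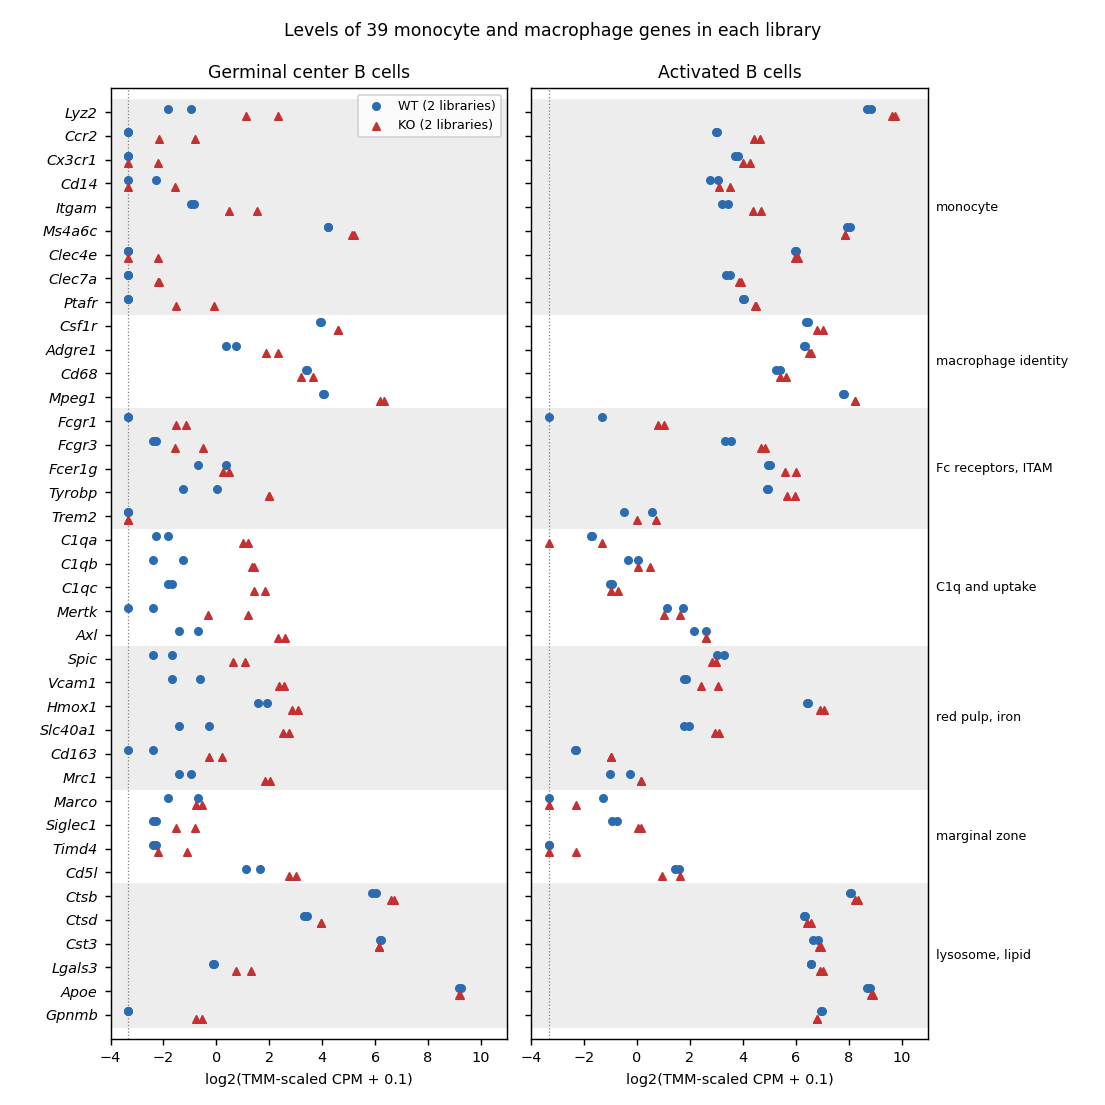
Level of each of the 39 genes in each library, as log2(CPM + 0.1), in germinal center (left) and activated B cells (right), with blue circles for WT and red triangles for KO and a dotted line at 0 CPM. Monocyte genes such as Clec4e and Cx3cr1 sit at or next to that line on the left and well above it on the right, while C1qa, C1qb and C1qc are highest in the KO germinal center libraries.

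The comparison of the WT groups shows how the genes differ between the B cell preparations without the knockout. Of 29 members tested, 27 were lower in the germinal center libraries, 1 was higher and 1 did not pass. A gene near 0 in germinal center B cells could enter this test only through its activated level, and could then only be called lower. The counts and the median below therefore describe these members and do not support one another. Among all 14426 genes tested, 82.2% were called, 41.8% lower and 40.3% higher. The median log2 fold change of the 29 members was -5.17, against -0.03 over all genes tested, and it was the same with the 6 members that had no count in 1 group set at their bound. Differences of more than 2-fold were called for 26 members, all lower in germinal center B cells, where 24.3% of all genes were lower and 19.8% higher by that much.

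The widest gaps between the WT preparations were those of Gpnmb, Clec4e and Lyz2. Gpnmb, a membrane glycoprotein of lipid-loaded macrophages, had no count in WT germinal center B cells and stood at 124 and 128 CPM in WT activated B cells. Against 3 counts over the germinal center group it was at least 865-fold lower there. Clec4e, the receptor Mincle for mycobacterial glycolipid and dead cells, was at least 432-fold lower by the same rule, and Cx3cr1, the fractalkine receptor, at least 91.8-fold. Lyz2 stood at 0.419 and 0.182 CPM in WT germinal center B cells against 456 and 413 CPM in WT activated B cells (log2 fold change -10.49, SE 0.13, adjusted p = 2.35e-146). It had 4 and 2 counts in the WT germinal center libraries, so that SE is too small. The genes of the ITAM adaptors, which carry the signal of activating receptors, also stood far apart. Tyrobp was at 0.314 and 0.911 CPM in WT germinal center B cells against 30.6 and 30.2 CPM in WT activated B cells (log2 fold change -5.57, SE 0.23, adjusted p = 4.96e-59) and Fcer1g at 0.524 and 1.18 CPM in WT germinal center B cells against 32.7 and 30.8 CPM in WT activated B cells (log2 fold change -5.17, SE 0.21, adjusted p = 3.97e-59). WT germinal center counts were 3 and 10 for Tyrobp and 5 and 13 for Fcer1g, so their SEs are too small as well. The libraries of the 2 preparations did not overlap for any of the genes named in this paragraph.

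A few members departed from that order in WT cells. Apoe was higher in germinal center B cells, at 582 and 613 CPM in WT germinal center B cells against 449 and 416 CPM in WT activated B cells (log2 fold change 0.46, SE 0.05, adjusted p = 1.79e-17). Cd5l, a secreted scavenger protein of splenic and other resident macrophages, stood at 2.10 and 3.0 CPM in WT germinal center B cells against 2.58 and 2.87 CPM in WT activated B cells and did not pass (log2 fold change -0.09, SE 0.31, adjusted p = 0.792, and 0.15 with adjusted p = 0.72 without WT germinal center replicate 1). Cst3 was lower in germinal center B cells by only 0.57 on the log2 scale, and against a 1.5-fold threshold neither Apoe (adjusted p = 1.0) nor Cst3 (adjusted p = 0.502) passed. The C1q genes had too few counts to be tested, with C1qa at 1 and 2 counts in the germinal center and 2 and 2 counts in the activated libraries. C1qb had 3 and 1 counts in the germinal center against 9 and 7 in the activated libraries, and C1qc 2 and 2 against 4 and 4. C1qb was called lower in germinal center B cells without the filter on low counts and in 1 fit over all 8 libraries.

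In germinal center B cells, KO libraries held more RNA than WT libraries of most members that could be tested. The largest fold changes were those of the C1q genes, Axl, Vcam1, Slc40a1, Lyz2, Spic and Mrc1, all under 1 CPM in WT. In CPM the largest rise was that of Mpeg1, from a mean of 16.4 CPM in WT to 77.0 CPM in KO. Only 24 of the 39 members had enough counts to be tested, of which 20 rose, 0 fell and 4 did not pass. Among all 13350 genes tested, 50.2% were called, 25.1% higher and 25.1% lower, so a call alone is common here. A rise of more than 2-fold was called for 16 members and for 7.28% of all genes, and a fall of that size for 1.70% of all genes. A gene near 0 in WT could enter the test only through its KO level, so the counts describe the members and do not support one another. The edgeR test gave 20 higher and 0 lower also at an unadjusted p under 0.05, and DESeq2 gave 20 and 0. The median log2 fold change of the 24 was 1.91, against -0.00443 over all genes tested.

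Of the 9 monocyte genes, 3 rose in KO germinal center B cells, 2 of them by more than 2-fold, and 6 had too few counts to test. Ccr2, the receptor that draws monocytes out of the bone marrow, had 1 and 4 counts in the KO libraries and none in WT. Cx3cr1, Clec4e, the LPS co-receptor gene Cd14 and Clec7a, which encodes the beta-glucan receptor Dectin-1, had at most 2 counts in any germinal center library. Ptafr, the receptor of platelet-activating factor, had 2 and 7 counts in KO and 0 in WT, at least 3.7-fold higher against 3 counts over the WT group. Lyz2 rose (log2 fold change 3.54, SE 0.50, adjusted p = 1.14e-11), at 2.07 and 4.99 CPM in the KO libraries against 0.419 and 0.182 CPM in WT. Itgam, the integrin chain CD11b, was at 2.80 and 1.31 CPM in the KO libraries against 0.419 and 0.455 CPM in WT (log2 fold change 2.19, SE 0.52, adjusted p = 0.000102), and without KO replicate 1 its adjusted p was 0.129. Ms4a6c, of the MS4A membrane protein family, had the highest level of the monocyte genes per kilobase (17.5 CPM per kb in KO), and rose, at 37.1 and 34.5 CPM in the KO libraries against 18.3 and 18.5 CPM in WT (log2 fold change 0.96, SE 0.11, adjusted p = 3.44e-18). Its value is uncertain, since exons of BE692007 on the opposite strand cover 53.1% of its exon length and the strand setting of the counts is not known here.

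Of the 4 genes of macrophage identity, 3 were called higher in KO germinal center B cells. Mpeg1, the pore-forming protein perforin-2 of phagocytes (chromosome 19, 12460779 to 12465283, GRCm38, plus strand), rose to 72.4 and 81.7 CPM in the KO libraries from 16.1 and 16.7 CPM in WT (log2 fold change 2.23, SE 0.09, adjusted p = 4.3e-132). Adgre1, which encodes the macrophage antigen F4/80, stood at 3.53 and 4.99 CPM in the KO libraries against 1.57 and 1.18 CPM in WT (log2 fold change 1.64, SE 0.34, adjusted p = 8.07e-06). Csf1r, the receptor of the macrophage growth factors CSF1 and IL-34, rose by less, at 24.0 and 24.4 CPM in the KO libraries against 15.4 and 14.9 CPM in WT (log2 fold change 0.68, SE 0.12, adjusted p = 2.67e-07), and 15.1% of its exon length overlaps Hmgxb3 on the opposite strand. KO and WT did not overlap for these 3 genes. Cd68, a lysosomal glycoprotein of macrophages, did not pass, at 9.12 and 12.4 CPM in the KO libraries against 10.5 and 10.6 CPM in WT (log2 fold change 0.04, SE 0.17, adjusted p = 0.884), and its KO libraries lay on both sides of the WT libraries.

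Of the 5 Fc receptor and ITAM genes, only 2 could be tested in germinal center B cells, of which 1 rose. Tyrobp, the adaptor DAP12, rose (log2 fold change 2.61, SE 0.41, adjusted p = 2.03e-09), at 3.89 and 3.92 CPM in the KO libraries against 0.314 and 0.911 CPM in WT. Fcer1g, the common Fc receptor gamma chain, did not pass and overlapped between genotypes, at 1.09 and 1.31 CPM in the KO libraries against 0.524 and 1.18 CPM in WT (log2 fold change 0.46, SE 0.51, adjusted p = 0.48). The high-affinity IgG receptor gene Fcgr1 had 2 and 3 counts in KO and 0 in WT, and Fcgr3, which encodes the activating IgG receptor FcγRIII, had 5 and 2 against 1 and 1 counts (ratio 4.32, exact 95% counting interval 0.82 to 42.6). Trem2, a lipid receptor that signals through DAP12, had no count in any germinal center library.

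Of the 5 C1q and uptake genes, all 4 that could be tested in germinal center B cells rose by more than 2-fold. The 3 chains of C1q form the recognition molecule of the classical complement pathway. Their genes lie side by side on chromosome 4, C1qb at 136880129 to 136886187, C1qc at 136889804 to 136893065 and C1qa at 136895917 to 136898803 (GRCm38, minus strand). C1qc stood at 2.55 and 3.45 CPM in the KO libraries against 0.210 and 0.182 CPM in WT (log2 fold change 3.86, SE 0.57, adjusted p = 7.16e-11) and C1qb at 2.43 and 2.61 CPM in the KO libraries against 0.314 and 0.0911 CPM in WT (log2 fold change 3.61, SE 0.59, adjusted p = 6.36e-09). C1qa stood at 2.19 and 1.90 CPM in the KO libraries against 0.105 and 0.182 CPM in WT, and rose (adjusted p = 1.19e-07), a ratio of 14.0 over 34 and 3 counts with an exact 95% counting interval of 4.40 to 71.2. All 3 were at or below 3.45 CPM, and KO and WT did not overlap for any of them. The receptor tyrosine kinase genes Axl and Mertk act in the uptake of apoptotic cells. Axl rose, at 5.96 and 4.87 CPM in the KO libraries against 0.524 and 0.273 CPM in WT (log2 fold change 3.75, SE 0.43, adjusted p = 1.45e-17). Mertk was not tested and had 18 and 6 counts in KO against 0 and 1 in WT, a ratio of 29.6 with a counting interval of 4.83 to 1218.

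Promoter sequences of these genes are shown because all 3 C1q genes rose (C1qb and C1qc were added after their values were seen) and because Mpeg1 and the cathepsin D gene Ctsd were among the called members with at least 50 counts on average. Each is the 250 bases before a RefSeq start site (GRCm38.p6), 5′ to 3′ on the strand of the gene. Capitals mark matches on either strand to GAGGAAGT (PU.1 type), the interferon-stimulated response element type motif, TGACNNNGC (antioxidant response element type) or TCACGTGA (TFEB type).
C1qb (chr4:136886201-136886450, minus strand): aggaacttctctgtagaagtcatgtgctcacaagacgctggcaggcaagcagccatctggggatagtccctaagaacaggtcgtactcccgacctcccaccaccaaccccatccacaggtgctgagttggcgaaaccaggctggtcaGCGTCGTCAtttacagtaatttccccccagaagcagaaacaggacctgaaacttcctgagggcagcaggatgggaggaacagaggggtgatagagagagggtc
C1qc (chr4:136892915-136893164, minus strand): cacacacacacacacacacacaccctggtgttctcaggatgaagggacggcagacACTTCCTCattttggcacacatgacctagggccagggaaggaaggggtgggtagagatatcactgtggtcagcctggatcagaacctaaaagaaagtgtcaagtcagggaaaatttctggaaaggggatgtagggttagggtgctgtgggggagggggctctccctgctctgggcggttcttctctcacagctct
Mpeg1 (chr19:12460520-12460769, plus strand): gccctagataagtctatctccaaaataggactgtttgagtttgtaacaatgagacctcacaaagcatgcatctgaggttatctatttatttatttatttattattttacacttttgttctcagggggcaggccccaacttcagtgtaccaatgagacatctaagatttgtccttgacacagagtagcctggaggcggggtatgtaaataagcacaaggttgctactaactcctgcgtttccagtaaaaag
Ctsd (chr7:142387828-142388077, minus strand): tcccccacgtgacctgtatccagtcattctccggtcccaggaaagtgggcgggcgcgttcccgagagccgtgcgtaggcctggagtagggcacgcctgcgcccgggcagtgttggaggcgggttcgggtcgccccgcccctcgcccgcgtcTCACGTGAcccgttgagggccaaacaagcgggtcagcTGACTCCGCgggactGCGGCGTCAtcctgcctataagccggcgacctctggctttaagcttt
C1qc holds a PU.1-type match 195 to 188 bases before the start, C1qb an antioxidant-type match 103 to 95 bases before it, and the Mpeg1 window none of these letters. The window of Ms4a6c, chosen by the same rule as Mpeg1 and Ctsd but not printed, held none either. Ctsd holds a TFEB-type match 99 to 92 bases before the start, and antioxidant-type matches 62 to 54 and 47 to 39 bases before it. The GENCODE annotation starts Ctsd at 142388038 and C1qc at 136893065, so parts of these 2 windows lie inside the annotated genes. The Ctsd matches lie inside, and the C1qc match lies outside. RefSeq windows were found for 29 of the 39 members, 33 windows in all. They held 1 PU.1-type, 0 interferon-type, 2 antioxidant-type and 1 TFEB-type window. Of all 32851 windows of this length, 2.44%, 2.98%, 10.2% and 0.785% held those motifs in the same order. A match is a run of letters and not a site shown to be bound.

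All 5 red pulp and iron genes that could be tested rose by more than 2-fold in KO germinal center B cells. Vcam1, an adhesion molecule of red pulp macrophages and stromal cells, stood at 5.11 and 5.82 CPM in the KO libraries against 0.210 and 0.546 CPM in WT (log2 fold change 3.77, SE 0.42, adjusted p = 8.3e-18). Slc40a1, the iron exporter ferroportin, stood at 6.57 and 5.59 CPM in the KO libraries against 0.733 and 0.273 CPM in WT (log2 fold change 3.61, SE 0.40, adjusted p = 1.08e-18). These 2 genes were under 1 CPM in both WT libraries and over 5 CPM in both KO libraries. Spic, the transcription factor gene of red pulp macrophages, stood at 1.46 and 2.02 CPM in the KO libraries against 0.210 and 0.0911 CPM in WT, and rose (adjusted p = 2.11e-06), a ratio of 11.9 over 29 and 3 counts with a counting interval of 3.70 to 61.2. Mrc1, the mannose receptor, stood at 4.01 and 3.45 CPM in the KO libraries against 0.419 and 0.273 CPM in WT (log2 fold change 3.40, SE 0.48, adjusted p = 9.21e-12). Hmox1, the heme-degrading enzyme heme oxygenase 1, had more counts in WT and rose by less, at 8.39 and 7.13 CPM in the KO libraries against 3.67 and 2.91 CPM in WT (log2 fold change 1.25, SE 0.24, adjusted p = 7.34e-07). Cd163, the receptor of hemoglobin bound to haptoglobin, was not tested and had 6 and 9 against 0 and 1 counts, a ratio of 18.5 with a counting interval of 2.85 to 779.

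Of the genes grouped as marginal zone, only Cd5l, a gene of splenic and other resident macrophages, could be tested in germinal center B cells. It rose and stood at 7.90 and 6.66 CPM in the KO libraries against 2.10 and 3.0 CPM in WT (log2 fold change 1.5, SE 0.26, adjusted p = 2.56e-08). Marco, a scavenger receptor that defines marginal zone macrophages, had 4 and 5 counts in KO and 5 and 2 in WT, which overlapped. Siglec1, the sialoadhesin of metallophilic macrophages, had 2 and 4 against 1 and 1 counts (ratio 3.70, counting interval 0.662 to 37.5). Timd4, the phosphatidylserine receptor TIM-4, had 3 and 1 against 1 and 1 counts (ratio 2.47, counting interval 0.354 to 27.3). A difference in these defining marginal zone genes was not detectable at this depth.

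Of the 6 lysosome and lipid genes, 3 rose in KO germinal center B cells, 1 of them by more than 2-fold, 2 did not pass and 1 was not tested. Apoe stood at 581 and 587 CPM in the KO libraries against 582 and 613 CPM in WT and Cst3 at 69.9 and 69.9 CPM in the KO libraries against 72.0 and 74.4 CPM in WT, and neither passed (log2 fold changes -0.03 and -0.06, SE 0.03 and 0.07, adjusted p = 0.455 and 0.44). With library totals in place of TMM Apoe was called lower. The lysosomal proteases rose, with Ctsb at 98.1 and 104 CPM in the KO libraries against 65.0 and 58.9 CPM in WT (log2 fold change 0.71, SE 0.06, adjusted p = 9.52e-29) and Ctsd at 15.3 and 15.5 CPM in the KO libraries against 10.6 and 9.83 CPM in WT (log2 fold change 0.60, SE 0.15, adjusted p = 0.000316). Of the exon length of Ctsb, 12.8% overlaps Fdft1 on the opposite strand, and of Ctsd, 34.4% is shared with Gm49369 on the same strand. Lgals3, the beta-galactoside lectin galectin-3, stood at 1.58 and 2.38 CPM in the KO libraries against 0.838 and 0.819 CPM in WT (log2 fold change 1.25, SE 0.46, adjusted p = 0.0148), a call that was lost without KO replicate 2 (adjusted p = 0.285), without WT replicate 1 (0.0903) or 2 (0.115), and with DESeq2 (0.167). Gpnmb had 4 and 5 counts in KO and 0 in WT, at least 3.7-fold higher against 3 counts over the WT group.

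The summed level of the 39 genes was 974 and 997 CPM in KO and 804 and 830.4 CPM in WT germinal center B cells. Apoe made up 73.2% of that sum in WT and 59.2% in KO. Without Apoe, Cst3 and Ctsb, left out after their levels were seen, the other 36 genes summed to 225 and 237 CPM in KO and 84.4 and 83.7 CPM in WT. By subset, C1q and uptake genes summed to 15.3 and 13.5 CPM in KO against 1.15 and 0.819 CPM in WT. Red pulp and iron genes summed to 26.3 and 25.1 against 5.24 and 4.19 CPM, and lysosome and lipid genes to 766 and 779 against 731 and 757 CPM. KO libraries exceeded WT libraries in all 7 subset sums, of which the marginal zone sum was 86.4% Cd5l in KO. The lysosome and lipid sums lay close together, and their main gene, Apoe, did not rise.

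**Figure D2:**
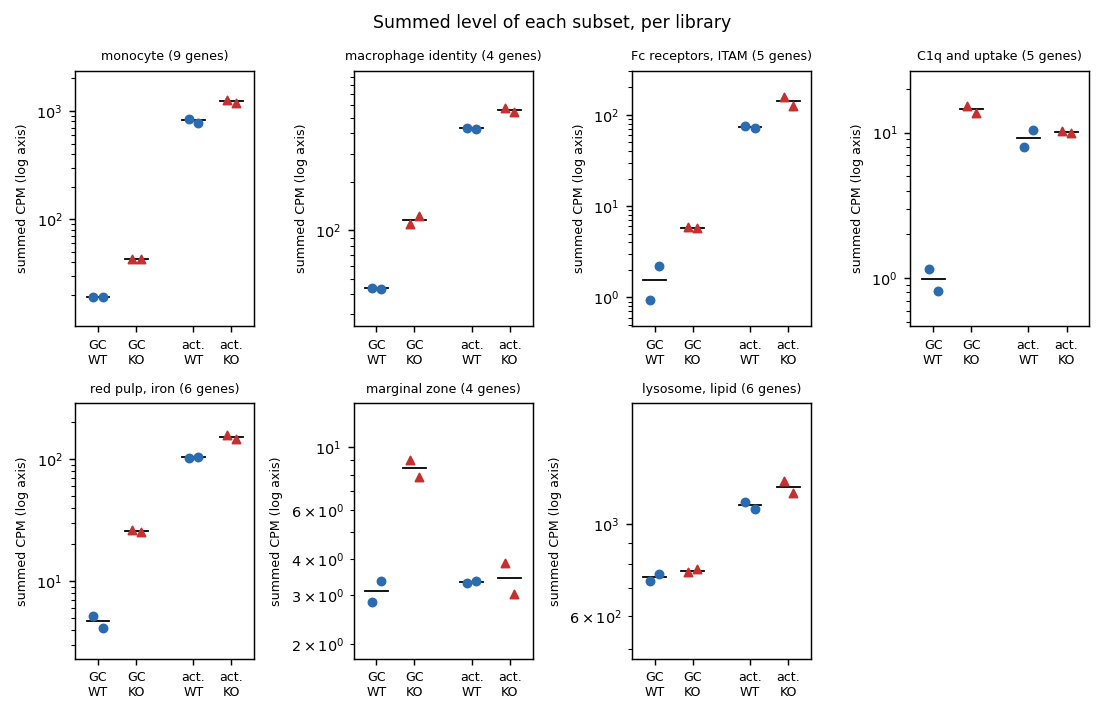
Summed CPM of each of the 7 subsets in every library on log axes whose ranges differ between panels, with blue circles for WT, red triangles for KO and a line at the mean of the 2 libraries. The C1q and uptake genes are highest in KO germinal center B cells (15.3 and 13.5 CPM), while the monocyte genes are highest in KO activated B cells (1276 and 1189.7 CPM).

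Markers of other cells and states moved with these genes in germinal center B cells, and their part in the result was not tested. Over all genes tested there, 25.1% rose, 7.28% rose by more than 2-fold, and 25.1% fell. Erythroid genes, 9 in all, summed to 62.5 and 76.7 CPM in KO and 7.75 and 9.74 CPM in WT, and 6 of 6 tested rose by more than 2-fold. All 10 interferon response genes rose, 9 by more than 2-fold, with sums of 266 and 262 against 83.9 and 97.3 CPM. Of 10 dendritic cell genes 3 of 4 tested rose, with sums of 109 and 100.4 against 68.1 and 71.5 CPM carried mostly by Flt3. Of 9 T cell genes 2 of 3 tested rose, while the sums, mostly Lck, were 96.4 and 89.5 against 92.1 and 92.3 CPM. NK cell genes summed to 3.77 and 2.14 against 0.210 and 0.455 CPM. Neutrophil genes, 13 in all, summed to only 2.07 and 1.90 CPM in KO and 0.105 and 0.728 CPM in WT, none could be tested, and 8 of them had no count in either KO library. All 7 germinal center genes fell, and 6 of 7 B cell genes rose by less than 2-fold. Stromal genes did not exceed 0.637 CPM in sum in any germinal center library.

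Further genes listed for macrophages, monocytes and lysosomes, outside the 39, were counted on lists that were also chosen with earlier results of these data known. Among all genes tested in germinal center B cells, 25.1% rose, 7.28% rose by more than 2-fold, and 25.1% fell. Of 20 other resident macrophage genes, 8 could be tested in germinal center B cells, of which 6 rose by more than 2-fold and 2 did not pass. The fatty acid scavenger receptor gene Cd36 rose, at 123 and 128 CPM in the KO libraries against 17.8 and 17.7 CPM in WT (log2 fold change 2.83, SE 0.08, adjusted p = 2.32e-278). Cd300lf, a phosphatidylserine-binding receptor gene, stood at 37.5 and 37.4 CPM in the KO libraries against 11.2 and 11.7 CPM in WT. Of 20 other monocyte genes, 8 could be tested, of which 6 rose, 4 of them by more than 2-fold, and 2 did not pass. Ly6c2, the classical monocyte antigen Ly6C, stood at 9.48 and 6.77 CPM in the KO libraries against 0 and 0.0911 CPM in WT, and Plac8 at 144 and 141 CPM in the KO libraries against 8.17 and 8.92 CPM in WT (log2 fold change 4.06, SE 0.09). Cd36 and Plac8 stood far above Adgre1 (3.53 and 4.99 CPM) in the KO libraries, and which cells their RNA came from was not tested. Of 20 other lysosome genes 13 of 19 tested rose, 3 of them by more than 2-fold, and 1 fell. Psap, which encodes the precursor of the saposins, rose, at 527 and 514 CPM in the KO libraries against 205 and 202 CPM in WT (log2 fold change 1.36, SE 0.04, adjusted p = 5.05e-282).

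Regulators and signalling genes of the myeloid lineage were mixed, in a comparison where 25.1% of all genes tested rose and 25.1% fell. Of 14 regulators, 10 were tested, of which 6 rose and 2 fell. Klf4, a transcription factor gene of monocytes, rose (log2 fold change 2.75, SE 0.18, adjusted p = 7.52e-51), at 21.8 and 22.9 CPM in the KO libraries against 3.56 and 3.10 CPM in WT. Spi1, which encodes the myeloid and B cell factor PU.1 and was singled out after its values were seen, fell (log2 fold change -0.45, SE 0.05, adjusted p = 7.17e-20), at 124 and 126 CPM in the KO libraries against 166 and 175 CPM in WT. Of 12 cytokine and chemokine receptor genes, 5 of 9 tested rose and 3 fell, with Il10ra higher (log2 fold change 1.72) and Tgfbr1, a receptor of TGF-beta, lower (-1.52). Of 11 genes of ITAM signalling and its inhibitors, 5 of 10 tested rose and 2 fell, with the inhibitory receptor gene Pirb at 38.9 and 40.2 CPM in the KO libraries against 7.96 and 9.83 CPM in WT (log2 fold change 2.14, SE 0.12, adjusted p = 1.53e-65). Of 14 other iron genes, 5 were higher and 5 lower in KO, and the ferritin heavy chain gene Fth1 fell from 763 and 829 CPM to 628 and 617 CPM (log2 fold change -0.35). Rises of more than 2-fold were called for 4 regulators, 4 receptor genes, 2 ITAM genes and 1 iron gene, against 7.28% of all genes. A fall of that size was called for 1 receptor gene, against 1.70% of all genes.

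In activated B cells the KO libraries also held more RNA of several of these genes. Of 31 members tested, 16 rose, 0 fell and 15 did not pass, while 6.27% of all 14110 genes were called, 4.85% higher and 1.42% lower. Rises of more than 2-fold were called for 5 members and for 1.52% of all genes. At an unadjusted p under 0.05 edgeR gave 22 higher and 2 lower, and DESeq2 called 11 higher and 0 lower. The median log2 fold change of the 31 was 0.40, against 0.000623 over all genes tested.

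Of the 9 monocyte genes, all tested in activated B cells, 5 rose in KO, 2 of them by more than 2-fold, and 4 did not pass. Lyz2 (chromosome 10, 117277331 to 117282321, minus strand) rose to 866 and 784 CPM in the KO libraries from 456 and 413 CPM in WT (log2 fold change 0.93, SE 0.06, adjusted p = 3.25e-11). Ccr2 (chromosome 9, 124101950 to 124113557, plus strand) rose to 21.1 and 25.1 CPM from 7.83 and 8.11 CPM (log2 fold change 1.54, SE 0.14, adjusted p = 1.88e-08). Itgam rose as well, at 25.4 and 20.8 CPM in the KO libraries against 10.7 and 9.10 CPM in WT (log2 fold change 1.22, SE 0.14, adjusted p = 7.96e-07), although 68.7% of its exon length is shared with Gm49368 on the same strand. In these 3 genes both KO libraries exceeded both WT libraries by more than the spread within a group. Another 4 monocyte genes did not pass. Clec4e stood at 67.8 and 62.0 CPM in the KO libraries against 64.4 and 62.0 CPM in WT (log2 fold change 0.04, SE 0.07, adjusted p = 0.837) with overlapping genotypes, Cx3cr1 at 16 and 19.2 CPM in the KO libraries against 13.8 and 13.1 CPM in WT (log2 fold change 0.40, SE 0.13, adjusted p = 0.0788), and Cd14 at 11.2 and 8.46 CPM in the KO libraries against 6.59 and 8.31 CPM in WT (log2 fold change 0.40, SE 0.18, adjusted p = 0.242). Without KO replicate 1, Cx3cr1 passed (log2 fold change 0.52, adjusted p = 0.0254). Ms4a6c stood at 231 and 234 CPM in the KO libraries against 266 and 242 CPM in WT (log2 fold change -0.13, SE 0.06, adjusted p = 0.224). Clec7a and Ptafr passed narrowly. Clec7a was at 14.4 and 15.2 CPM in the KO libraries against 10.2 and 11.3 CPM in WT (log2 fold change 0.46, SE 0.14, adjusted p = 0.0476), and its adjusted p was 0.0697 to 0.217 when any 1 library was left out and 0.769 with DESeq2. Ptafr was at 22.5 and 21.6 CPM in the KO libraries against 16.2 and 15.9 CPM in WT (log2 fold change 0.46, SE 0.11, adjusted p = 0.0136), and its adjusted p was 0.0807 without KO replicate 1, 0.0583 without WT replicate 2 and 0.481 with DESeq2.

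Of the 5 Fc receptor and ITAM genes, 4 rose in KO activated B cells, 2 of them by more than 2-fold. Fcgr3 stood at 28.4 and 25.9 CPM in the KO libraries against 11.5 and 9.99 CPM in WT (log2 fold change 1.34, SE 0.12, adjusted p = 2.52e-08). Fcer1g stood at 64.3 and 48.1 CPM in the KO libraries against 32.7 and 30.8 CPM in WT (log2 fold change 0.83, SE 0.10, adjusted p = 4.17e-06) and Tyrobp at 61.8 and 50.1 CPM in the KO libraries against 30.6 and 30.2 CPM in WT (log2 fold change 0.88, SE 0.09, adjusted p = 2.64e-07). Fcgr1 stood at 1.94 and 1.61 CPM in the KO libraries against 0 and 0.297 CPM in WT, and rose (adjusted p = 0.00177), a ratio of 11.7 over 35 and 3 counts with a counting interval of 3.70 to 59.6, and DESeq2 gave it no adjusted p. The genotypes did not overlap for any of the 4. The related inhibitory receptor gene Fcgr2b, which B cells express, stood at 230.2 and 217 CPM in the KO libraries against 197 and 182 CPM in WT (log2 fold change 0.24, SE 0.06, adjusted p = 0.00828). Trem2 was scarce and did not pass, at 1.53 and 0.907 CPM in the KO libraries against 0.618 and 1.38 CPM in WT (log2 fold change 0.27, SE 0.49, adjusted p = 0.838).

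Of the macrophage identity genes 2 of 4 rose in KO activated B cells, and of the lysosome and lipid genes 2 of 6, none by more than 2-fold. Mpeg1 stood at 303 and 304 CPM in the KO libraries against 226 and 221 CPM in WT (log2 fold change 0.44, SE 0.05, adjusted p = 1.58e-06) and Csf1r at 131 and 112 CPM in the KO libraries against 88.8 and 83.8 CPM in WT (log2 fold change 0.50, SE 0.07, adjusted p = 3.1e-05), both higher in KO. Adgre1 did not pass, at 93.8 and 89.6 CPM in the KO libraries against 79.5 and 80.4 CPM in WT (adjusted p = 0.0765), nor did Cd68, at 49.0 and 42.3 CPM in the KO libraries against 38.1 and 41.8 CPM in WT (adjusted p = 0.228). Lgals3 rose, at 129 and 119 CPM in the KO libraries against 95 and 95.2 CPM in WT (log2 fold change 0.39, SE 0.06, adjusted p = 0.000178). Ctsb was at 328 and 299.5 CPM in the KO libraries against 265 and 268 CPM in WT (log2 fold change 0.24, SE 0.06, adjusted p = 0.00759), with an adjusted p of 0.158 without KO replicate 1. Gpnmb ran the other way without passing, at 111 and 111 CPM in the KO libraries against 124 and 128 CPM in WT (log2 fold change -0.19, SE 0.06, adjusted p = 0.0679). It was called lower with library totals (adjusted p = 0.0487) and in 1 fit over all 8 libraries (0.0311). Apoe, Cst3 and Ctsd did not pass, with log2 fold changes of 0.11, 0.17 and 0.18. Apoe stood at 479 and 455 CPM in the KO libraries against 449 and 416 CPM in WT, Cst3 at 124 and 118 CPM in the KO libraries against 115 and 101 CPM in WT and Ctsd at 95.8 and 84.5 CPM in the KO libraries against 81.4 and 78.6 CPM in WT. Cst3 passed without WT replicate 1 (adjusted p = 0.0277) and Ctsd without KO replicate 2 (0.0458).

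Of 4 red pulp and iron genes tested in activated B cells, 3 rose in KO and Spic did not pass. Hmox1 stood at 134 and 122 CPM in the KO libraries against 87.5 and 86.6 CPM in WT (log2 fold change 0.56, SE 0.07, adjusted p = 1.18e-06) and Slc40a1 at 7.56 and 8.46 CPM in the KO libraries against 3.30 and 3.76 CPM in WT (log2 fold change 1.18, SE 0.21, adjusted p = 0.000582), although DESeq2 did not call Slc40a1 (adjusted p = 0.0687). Vcam1 stood at 8.27 and 5.24 CPM in the KO libraries against 3.30 and 3.46 CPM in WT (log2 fold change 1.0, SE 0.25, adjusted p = 0.0131), with an adjusted p of 0.373 without KO replicate 1 and 0.349 with DESeq2. Spic stood at 6.95 and 7.76 CPM in the KO libraries against 8.03 and 9.60 CPM in WT (log2 fold change -0.26, SE 0.18, adjusted p = 0.485), with both KO libraries below both WT libraries. Mrc1 was at 1.02 and 1.01 CPM in the KO libraries against 0.721 and 0.396 CPM in WT and was not tested, and neither was Cd163, with 4 and 4 counts in KO and 1 and 1 in WT. The genes of uptake did not pass, with Axl at 5.92 and 6.04 CPM in the KO libraries against 4.33 and 5.94 CPM in WT (log2 fold change 0.22, SE 0.22, adjusted p = 0.663) and Mertk at 2.96 and 1.91 CPM in the KO libraries against 2.06 and 3.26 CPM in WT (log2 fold change -0.13, SE 0.33, adjusted p = 0.892).

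C1q genes, Marco, Timd4 and Siglec1 had few counts in activated B cells of either genotype. C1qa had 0 and 3 counts in KO and 2 and 2 in WT, C1qb had 9 and 13 in KO and 9 and 7 in WT, and C1qc had 5 and 4 in KO and 4 and 4 in WT. Marco had 0 and 1 counts in KO and 3 and 0 in WT, and Timd4 had 1 count in all. Siglec1 had 9 and 10 counts in KO and 4 and 5 in WT. Cd5l stood at 2.96 and 1.81 CPM in the KO libraries against 2.58 and 2.87 CPM in WT and did not pass (log2 fold change -0.19, SE 0.32, adjusted p = 0.827, and 0.12 with adjusted p = 0.917 without KO replicate 2).

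**Figure D3:**
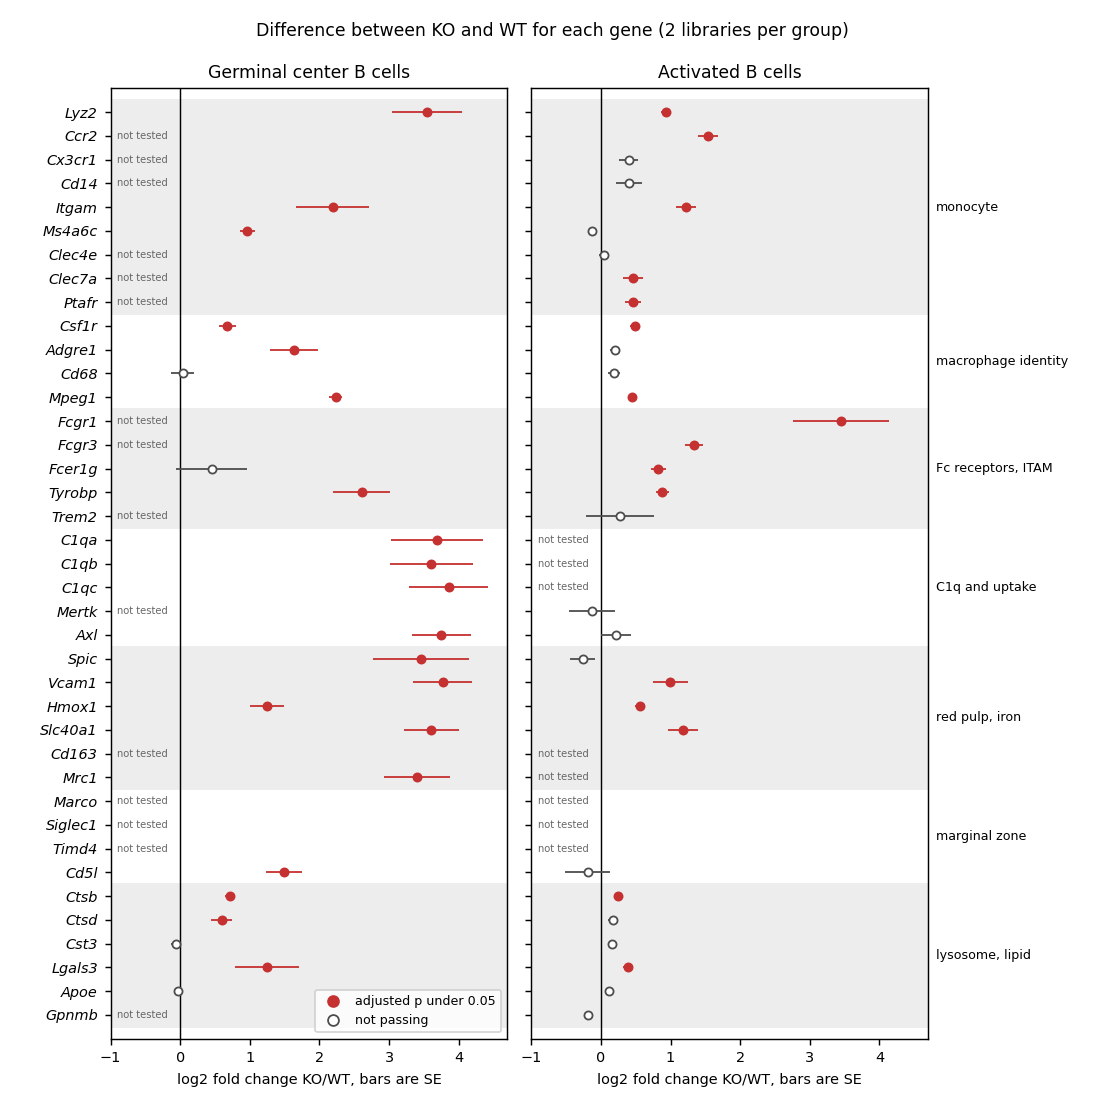
Log2 fold change of KO against WT (horizontal axis, bars are SE) for each gene in germinal center (left) and activated B cells (right), filled red where the adjusted p was under 0.05 and open where it was not. The SE is taken from the F statistic and can be too small for genes with few counts. C1q and red pulp genes such as Axl and Vcam1 lie between 3.4 and 3.9 on the left, apart from Hmox1 at 1.25, and on the right only Fcgr1 lies beyond 2.

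Neutrophil genes moved with some of the monocyte genes in activated B cells, and their part in the result was not tested. Over all genes tested there, 4.85% rose and 1.52% rose by more than 2-fold. All 13 neutrophil genes rose by more than 2-fold, with sums of 2548 and 2108 CPM in KO and 659 and 581 CPM in WT, and none was at 0 in either group. S100a9, which encodes a subunit of calprotectin of neutrophils and monocytes, stood at 483 and 412 CPM in the KO libraries against 125 and 107 CPM in WT (log2 fold change 1.95, SE 0.07, adjusted p = 6.81e-16). Erythroid genes summed to 1126 and 936 against 640.5 and 634 CPM, with 6 of 8 tested higher. Interferon response genes summed to 189 and 186 against 132 and 122 CPM, with 8 of 10 higher. T cell genes summed to 81.7 and 77.7 against 67.0 and 71.2 CPM.

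Some other monocyte genes rose with Ccr2 and Lyz2 in KO activated B cells, and which cells their RNA came from was not tested. Of 18 of the 20 further monocyte genes that could be tested, 8 rose, 6 of them by more than 2-fold, and 10 did not pass. Of all genes, 4.85% rose and 1.52% rose by more than 2-fold. Chil3, a chitinase-like protein gene, stood at 234 and 197 CPM in the KO libraries against 55.0 and 47.5 CPM in WT (log2 fold change 2.08, SE 0.08, adjusted p = 7.91e-16) and Ly6c2 at 98.3 and 76.5 CPM in the KO libraries against 23.2 and 22.9 CPM in WT (log2 fold change 1.92, SE 0.10, adjusted p = 4.65e-13). F13a1, which encodes the A chain of coagulation factor XIII, stood at 87.2 and 79.1 CPM in the KO libraries against 38.3 and 34.9 CPM in WT (log2 fold change 1.19, SE 0.08, adjusted p = 5.31e-11). These genes and S100a9 were singled out after their values were seen, apart from Ly6c2. In germinal center B cells Chil3 and F13a1 were at most 0.594 CPM in any library. Of 20 other resident macrophage genes 9 were tested in activated B cells, of which Cd36 (1.0) and Cd300lf (1.11) rose.

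**Figure D4:**
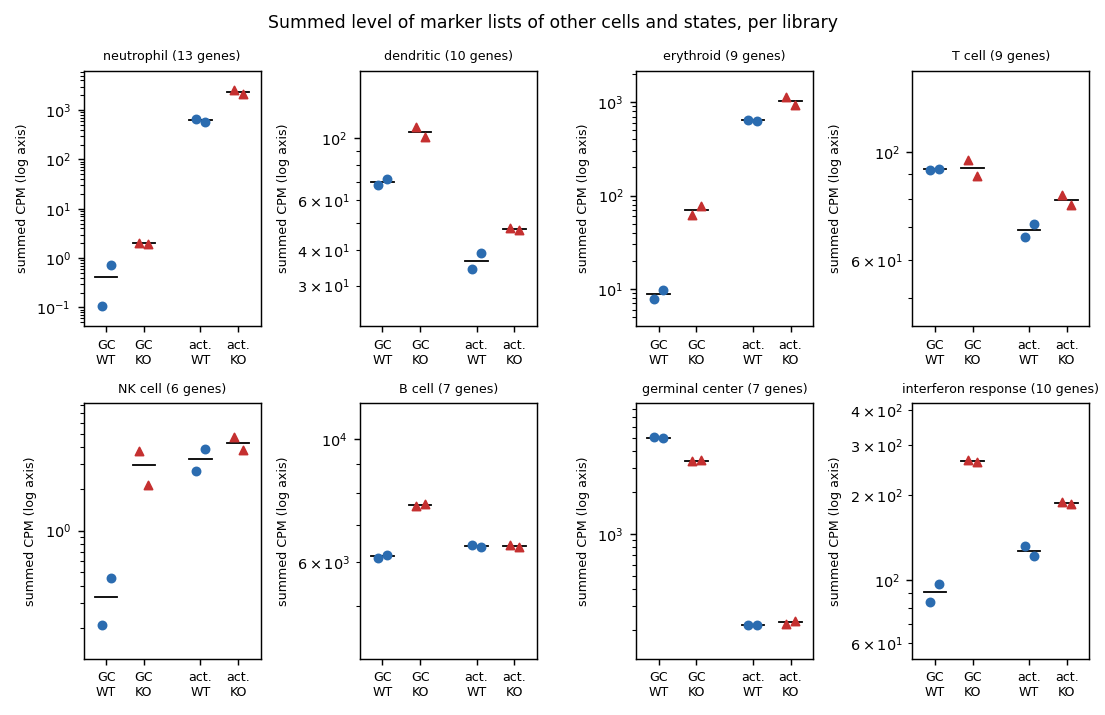
Summed CPM of 8 marker lists of other cells and states in every library, on log axes that differ between panels, with blue circles for WT, red triangles for KO and a line at the mean of the 2 libraries. Neutrophil genes stand at 2548 and 2108 CPM in KO activated B cells and at or below 2.07 CPM in all germinal center libraries, while erythroid and interferon response genes are higher in KO in both preparations.

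The last comparison tested whether the KO effects differed between the preparations, in 1 fit over all 8 libraries. Of 35 members tested, 20 had a more positive log2 effect in germinal center B cells, 1 had a more negative one and 14 did not pass. A gene near 0 in WT germinal center B cells, such as Gpnmb or Ptafr, could enter this test through its activated level. Its germinal center effect could then hardly come out negative, so the counts describe the members and do not support one another. Among all 14992 genes tested, 31.2% were called, 17.5% more positive and 13.8% more negative. Differences of more than 2-fold were called for 17 members, all more positive in germinal center B cells, against 6.30% of all genes. These are differences of log2 ratios, and the order in CPM can be the other way. Mean CPM of Lyz2 rose from 0.301 to 3.53 in germinal center B cells and from 434 to 825 in activated B cells. That of Axl rose from 0.398 to 5.42 in germinal center B cells and from 5.13 to 5.98 in activated B cells. DESeq2 called 14 members more positive and 0 more negative. Mpeg1 had the lowest adjusted p, with a difference of 1.79 on the log2 scale (SE 0.10, adjusted p = 7.85e-30). Axl differed by 3.53, SE 0.50, adjusted p = 5.25e-09, Spic by 3.73, SE 0.69, adjusted p = 5.64e-06 and Vcam1 by 2.77, SE 0.54, adjusted p = 1.39e-05. C1qb differed by 3.15, SE 0.88, adjusted p = 0.00286 (0.0501 without WT germinal center replicate 2) and C1qc by 3.69, SE 1.07, adjusted p = 0.0042, from very few counts in activated B cells. DESeq2 gave the 3 C1q genes no adjusted p for the difference, and did not call Hmox1 (adjusted p = 0.0603), Mrc1 (0.105), Ctsd (0.197) or Cst3 (0.201).

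Of the 9 monocyte and Fc receptor genes that rose in KO activated B cells, 6 did not pass the test of the difference, and Lyz2, Ptafr and Tyrobp did. Itgam differed by 0.97, SE 0.54, adjusted p = 0.177 and Fcer1g by -0.37, SE 0.52, adjusted p = 0.642, neither of which passed. Without KO germinal center replicate 2, Itgam did (1.42, adjusted p = 0.0458). Csf1r differed by 0.18, SE 0.13, adjusted p = 0.328, beside rises of 0.68 in germinal center and 0.50 in activated B cells. For Ccr2 (3.05, SE 1.67, adjusted p = 0.166) and Fcgr3 (0.64, SE 0.93, adjusted p = 0.66) the germinal center libraries held too few counts for a narrow estimate. Lyz2 had a difference of 2.62, SE 0.49, adjusted p = 7.6e-06, which rests on 6 counts in WT germinal center B cells. Tyrobp differed by 1.72, SE 0.41, adjusted p = 0.000438 and Ms4a6c by 1.09, SE 0.11, adjusted p = 1.1e-14.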

How the data were processed

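The deposited files hold raw read counts per gene, 1 file per library, made by the authors. The build mm10 and the tools Trimmomatic and DESeq2 are named per the submitters' processing notes. The sources used here give no aligner, no counting program and no strand setting. The 5 summary entries that name no gene, of which reads on no feature made up 47.2% to 53.9% of all entries, stayed out of library sizes and tests. Groups and replicate numbers came from the sample titles. Coordinates, exon lengths and overlaps came from GENCODE M21 (GRCm38, the assembly of mm10), which held all 39 members.

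The members and all gene lists were chosen with earlier results of these data known, so no test over a list is given. Counts were tested with edgeR 4.0.16 in R 4.3.3 (TMM scaling, filterByExpr, quasi-likelihood F test, Benjamini-Hochberg adjustment over all genes tested) on the libraries of each comparison, and on all 8 for the difference of KO effects. Alternatives were DESeq2 1.42.0, RLE scaling, library totals, no filter, glmTreat against 1.5-fold, a replicate block, 1 fit over all libraries and leaving out each library. Counting intervals are exact 95% binomial intervals, and they and the floor of 3 counts cover counting error only. Values were named for members that were called in some comparison with a mean of at least 20 counts in some group, for members that define a subset, and for at most 3 genes of each further list by lowest p. C1qa, Fcgr1, Trem2 and other members with fewer counts were added after their values were seen. The fitting code was tested on simulated counts with known changes in genes with higher counts and a low spread shared by all genes. It recovered 96% to 100% of 2-fold and 69% to 90% of 1.5-fold changes, and 4.02% to 6.86% of its calls were false. That test does not cover members with few counts. A few genes of the further lists are not reported here and were left out of those lists' counts and sums.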

Additional observations from a re-analysis of the deposited data

Results flagged for a closer look

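The KO effect differed between germinal center and activated B cells for 21 members in the test of the difference itself (edgeR quasi-likelihood over all 8 libraries, adjusted p under 0.05). Differences are log2 KO effects in germinal center minus activated B cells. Among monocyte genes they were 2.62 for Lyz2, 1.09 for Ms4a6c and 4.95 for Ptafr. Among genes of macrophage identity and ITAM signalling they were 1.44 for Adgre1, 1.79 for Mpeg1 and 1.72 for Tyrobp. The C1q and uptake genes gave 4.07 (C1qa), 3.15 (C1qb), 3.69 (C1qc), 4.69 (Mertk) and 3.53 (Axl). The red pulp and iron genes gave 3.73 (Spic), 2.77 (Vcam1), 0.69 (Hmox1), 2.42 (Slc40a1) and 2.55 (Mrc1). Cd5l, which was grouped with the marginal zone genes but is not confined to them, gave 1.68. Lysosome and lipid genes gave 0.47 (Ctsb), 0.42 (Ctsd), -0.23 (Cst3) and 5.60 (Gpnmb). Ptafr and Gpnmb had no count in WT germinal center B cells and Mertk had 1, so the sizes of these 3 fitted differences depend on the prior count. C1qa lost its call without any 1 library other than KO activated replicate 2 (adjusted p 0.0501 to 0.14), and Ptafr without KO germinal center replicate 2 (0.126) or WT germinal center replicate 2 (0.0565). Mrc1 lost it without WT germinal center replicate 2 (0.0749) or WT activated replicate 1 (0.2), and Hmox1 without KO germinal center replicate 1 (0.11) or WT germinal center replicate 2 (0.145). Ctsd lost it without either KO germinal center replicate (0.077 and 0.0854), WT germinal center replicate 2 (0.125), KO activated replicate 2 (0.115) or WT activated replicate 1 (0.054). Cst3 lost it without any germinal center library (0.0903 to 0.227), KO activated replicate 1 (0.123) or WT activated replicate 2 (0.402). Groups of 2 libraries were too small to look for a library that stands apart.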

How the results depend on the processing

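Of 1408 values of single members under an alternative, over the 119 results in which a member was tested, 1299 kept their direction and their side of the threshold, 75 were no longer past it, 15 passed it anew and 19 changed sign. The 15 were of Apoe, Gpnmb, Cx3cr1, Adgre1, Cst3, Ctsd and Itgam. No value passed the threshold after changing sign. With library totals Cd68 in germinal center B cells stood at -0.016. The other sign changes came as libraries were left out, and the log2 values then ran as follows. In germinal center B cells Cd68 ran from -0.20 to 0.24. In activated B cells Cd5l ran from -0.58 to 0.12 (0.12 without KO replicate 2), Clec4e from -0.028 to 0.10, Mertk from -0.48 to 0.24 and Trem2 from -0.18 to 0.97. In the WT comparison Cd5l ran from -0.36 to 0.15 (0.15 without WT germinal center replicate 1). The difference of effects ran from -2.66 to 2.97 for Cd14, -0.40 to 0.040 for Cd68, -0.038 to 3.33 for Clec4e and -0.39 to 2.97 for Cx3cr1. It ran from -0.78 to 0.38 for Fcer1g, -2.50 to 2.06 for Fcgr1, -0.15 to 1.16 for Fcgr3 and -0.96 to 0.18 for Trem2. Under glmTreat against 1.5-fold, a stricter question, genes called in germinal center B cells came to 966 higher and 281 lower against 3346 and 3352. The same test gave 137 and 16 in activated B cells against 684 and 201, with 6 members higher against 16. It gave 3687 genes higher against 5816 in the WT comparison, with 0 members higher against 1. For the difference of KO effects it gave 756 and 162 genes against 2621 and 2064, with 0 members lower against 1. DESeq2 called 255 genes higher and 56 lower in activated B cells, and 1435 and 1210 for the difference of effects, with 0 members lower. Without a filter on low counts 397 and 68 genes were called in activated B cells and 0 members lower for the difference of effects. Members called lower came to 1 with library totals in either KO comparison (Apoe in germinal center and Gpnmb in activated B cells, 0 with TMM), and to 2 for the difference of effects with RLE scaling or library totals (1 with TMM), where Apoe was added. In 1 fit over all 8 libraries Ccr2, Fcgr1, Gpnmb, Mertk and Ptafr were tested and called higher in germinal center B cells, and 408 genes and 1 member were lower in activated B cells. Leaving out each library in turn gave 19 to 20 members higher in germinal center B cells, 13 to 16 in activated B cells, and 27 to 28 lower in the WT comparison. For the difference of effects it gave 14 to 19 members higher and 0 to 2 lower (Apoe was called lower without KO activated replicate 2 or WT activated replicate 1), and 108 to 275 genes were called lower in activated B cells. Where that leaves 1 library in a group, it is assumed to vary like the others. Library totals moved the median of all genes in the WT comparison from -0.03 to -0.16. The labels do not say that replicate numbers pair the samples, and the deviations of same-numbered libraries correlated between -0.0337 and 0.0161 over 14992 genes. With the replicate block, 20 members rose in germinal center and 19 in activated B cells, where 953 genes were higher, and 435 genes and 1 member lower. Adgre1 (log2 fold change 0.20, adjusted p = 0.0303), Cst3 (0.17, 0.0497) and Cx3cr1 (0.40, 0.0407) then passed as higher in activated B cells and Gpnmb (-0.19, 0.0212) as lower. The causes were not tested. Genes with fewer than about 3 counts per group are limited by depth.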
